A study of Mus musculus with 5 samples.

Results

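The nuclear genes for subunits of the mitochondrial respiratory chain were described in peritoneal macrophages of c-Jun-deleted and wild-type mice. They were chosen by symbol alone, with no measured value: Nduf names with a subunit letter and number for complex I, Sdha to Sdhd for complex II, Uqcr names and Cyc1 for complex III, Cox names of the subunit series for complex IV, and Atp5 names for complex V, the ATP synthase. The rule itself was set with earlier results of these data known. It found 83 of the 21154 gene symbols on the array. By name 37 belong to complex I, 4 to complex II, 9 to complex III, 16 to complex IV and 17 to complex V.

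The c-Jun-deleted group had 2 arrays, numbered 1 and 9, from mice of the genotype cJunfl/fl LysMCre-/+, whose floxed Jun alleles are cut by a recombinase placed in the lysozyme gene Lyz2. The wild-type group had 3 arrays, numbered 5, 11 and 14, from littermates. All mice were 8 weeks old, of either sex and of a 129/C57Bl6 background, with no treatment given in the labels. The cells were those that stuck to the dish after a night in culture. LysM-Cre acts in myeloid cells other than macrophages too, and the source names of the c-Jun-deleted samples give a different Cre line, Mx. Each sample was taken as a mouse of its own; should samples share a mouse, the p-values would reflect technical spread alone.

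The respiratory chain moves electrons from NADH, at complex I, and from succinate, at complex II, through coenzyme Q, complex III and cytochrome c to oxygen at complex IV. Complexes I, III and IV pump protons across the inner mitochondrial membrane, and complex V uses the gradient to make ATP. In macrophages the balance of this respiration and glycolysis differs between states of activation, and succinate oxidation at complex II feeds the formation of reactive oxygen species. The subunits encoded in mitochondrial DNA lie outside the naming rule and were not analysed here.

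Values are log2 of a probe's background-subtracted signal minus log2 of its array's 75th percentile, so that 0 is the signal at that percentile, and a difference is the c-Jun-deleted mean less the wild-type mean. That percentile was 596 and 437 signal units on the c-Jun-deleted arrays and 474, 456 and 482 on the wild-type arrays, and between 53.0% and 60.6% of spots were well above background. Jun, the targeted transcription factor gene, was at 2.76 and 2.71 on the c-Jun-deleted arrays and at 3.21, 3.75 and 3.17 on the wild-type arrays (-0.64, SE 0.23, adjusted p = 0.391 by limma). The position of its probe against the floxed segment is unknown, so the level is no check of the genotype. Lyz2 was at 4.46 and 8.52 on c-Jun-deleted 1 and 9, against 8.70, 8.76 and 9.18 on the wild-type arrays. The 12 macrophage markers were measured on the array with none dim throughout, and their summed signal, relative to the 75th percentile, was 1048 and 1184 on the c-Jun-deleted arrays, against 1523, 1295 and 1762 on the wild-type arrays. Without Lyz2 the sums overlapped, at 1026 and 818 against 1107, 861 and 1183 in wild-type. Of the 12 genes 6 were higher and 6 lower in the c-Jun-deleted group, with a median difference of -0.12. Above the wild-type range lay 3 (25%, compared with 13.3% of all genes) and below it 4 (33.3%, compared with 20.2%).

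Markers of some other cells differed between the groups in the same libraries. The summed signal of 15 B cell markers was 366 and 530 on the c-Jun-deleted arrays, against 109, 87.7 and 57.2 on the wild-type arrays. All 15 lay above the wild-type range, as did 13.3% of all genes. Of 10 erythroid markers 9 were on the array, and their sums were 10.8 and 23.1 against 1.54, 1.1 and 0.716. For 13 T and NK cell markers the sums were 59.2 and 77.5 on the c-Jun-deleted arrays, against 24.9, 53.9 and 19.4 on the wild-type arrays. Without Cd2, which was 2.16 higher in the c-Jun-deleted group, they overlapped, at 25.8 and 34.0 against 13.9, 44.0 and 13.7. Of these 13 genes 8 were higher and 5 lower, and 2 lay above the wild-type range (15.4%, close to the 13.3% of all genes). Their highest median deviation was that of wild-type 11 (1.25, against 0.14 and 0.53 on the c-Jun-deleted arrays). The sums for 10 mesothelial and stromal markers were 2.29 and 3.65 against 4.04, 8.93 and 7.49 in wild-type, while those of mast cell and granulocyte markers overlapped between the groups. The part of these cells in the results was not tested. In such bulk RNA, fewer cells of a type and less RNA per cell cannot be told apart.

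Nearly all subunit genes were measured well above background, and they differed little between the genotypes. Of the 83 genes, 79 were well above background on all 5 arrays. The other 4 were dim on every array and have no level here: Ndufa4l2, which is known to be induced by low oxygen, Cox8b, a muscle form, and Cox7b2 and Cox8c, testis forms. A test across the whole array covered 78 members. Cox6a1, the fifth member without a test, had an outlying spot on wild-type 11; with that spot kept it was at 8.11 and 7.77 on the c-Jun-deleted arrays and at 8.03, 7.61 and 8.21 on the wild-type arrays.

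No member passed the test: 0 of 78 had a Benjamini-Hochberg adjusted p below 0.05 with limma, as had 0.0% of the 27938 genes tested. At an unadjusted p below 0.05 the count was likewise 0 of 78 in each direction, where 5.63% of all genes were called higher and 6.53% lower. The adjusted p-values of the members ran from 0.452 to 0.993. Both c-Jun-deleted arrays lay below the wild-type range for 14 of 78 members (17.9%), against 20.2% of all genes, and above it for 0, against 13.3% of all genes. The shares below the range are close to each other. With 2 and 3 arrays an exact permutation test has a smallest p of 0.1, so none was run.

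The differences were small and mostly of one sign under this scaling. They ran from -0.66 for Cox7a1 to 0.09 for Ndufb11, with a median of -0.17, and 75 of 78 were below 0, as were 61.4% of all genes, whereas under median centring 28 were below 0 and 50 above. The median over all genes tested was itself -0.09 under the 75th percentile and 0.12 under median centring, so scaling shifts every difference by the same amount. The members' median minus that of all genes was -0.08 under both of these, -0.04 under quantile normalization and -0.07 with normexp background correction. Standard errors ran from 0.14 to 0.37. The 95% interval of the difference stayed within 2-fold for 71 of 78 members, with a median half-width of 0.49. For the other 7 (Ndufb8, Ndufv3, Uqcrq, Cox6a2, Cox6b2, Cox7a1 and Atp5g3) it reached below 2-fold lower, and for none did it reach 2-fold higher. For each gene, any difference inside its interval remained compatible with the values of the 5 arrays.

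**Figure D1:**
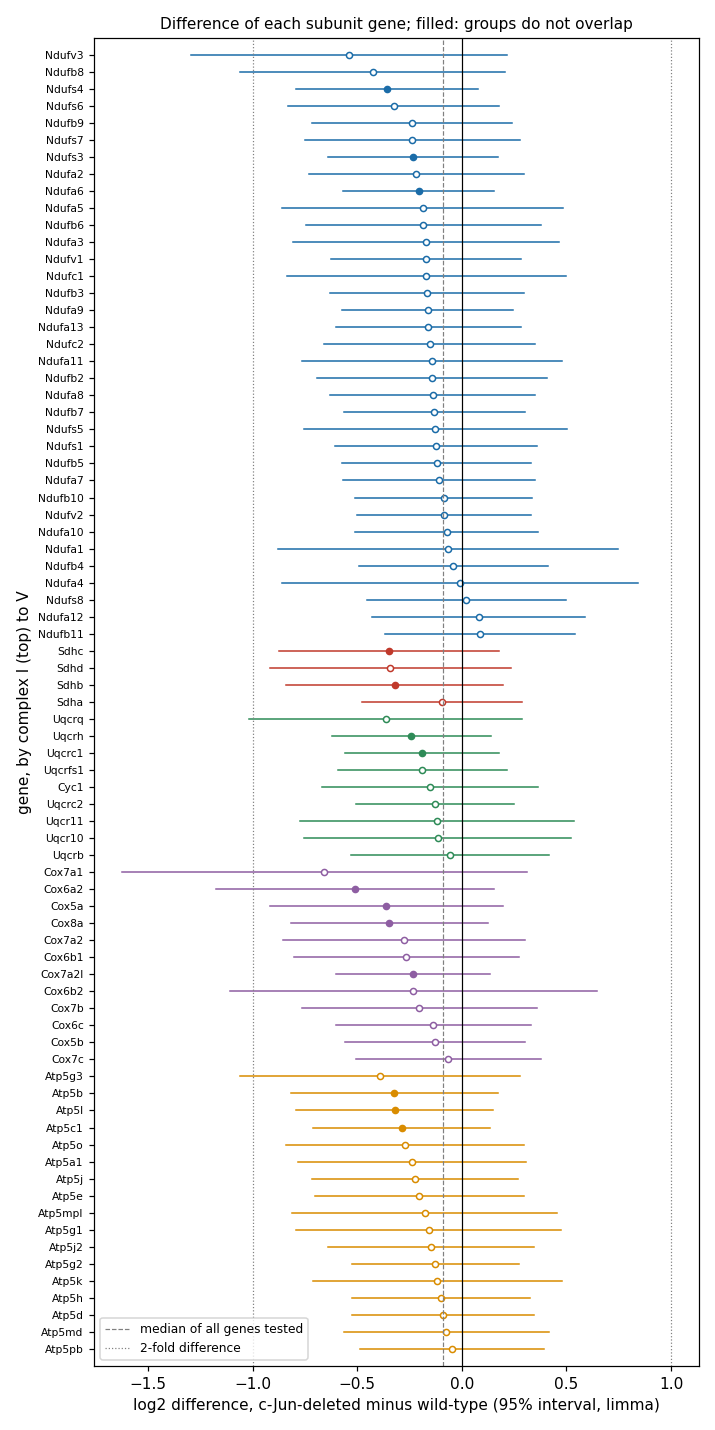
The log2 difference (c-Jun-deleted minus wild-type) is on the horizontal axis and each of 77 of the 78 tested genes is a row, from complex I at the top to complex V. Points are limma estimates, lines their 95% intervals, filled points the 14 genes whose groups do not overlap; every interval holds 0, and the dashed line marks the median of all genes, -0.09, which turns to 0.12 under median centring.

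Complex I takes electrons from NADH. Its 36 tested genes had a median difference of -0.15, which was 0.06 under median centring, with 33 below 0. Below the wild-type range lay 3 (Ndufa6, Ndufs3 and Ndufs4), or 8.33%, compared with 20.2% of all genes. Ndufv1, the flavoprotein subunit that binds NADH, was at 5.35 and 5.00 on the c-Jun-deleted arrays and at 5.29, 5.28 and 5.47 on the wild-type arrays (-0.17, SE 0.18, adjusted p = 0.701). Ndufs1, the large iron-sulfur subunit, was at 4.24 and 3.98 against 4.17, 4.08 and 4.44 in wild-type (-0.12, SE 0.19). For both genes c-Jun-deleted 1 lay inside the wild-type values and c-Jun-deleted 9 below them.

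Ndufs7, an iron-sulfur subunit near the coenzyme Q site, was at 5.24 and 5.06 on the c-Jun-deleted arrays and at 5.42, 5.14 and 5.61 on the wild-type arrays (-0.24, SE 0.20, adjusted p = 0.639), with overlapping groups. Ndufs3, another core subunit, was at 5.18 and 4.90 on the c-Jun-deleted arrays and at 5.21, 5.30 and 5.32 on the wild-type arrays (-0.23, SE 0.16, adjusted p = 0.566), and here the groups did not overlap, by a gap of 0.03. Ndufv2, an iron-sulfur partner of Ndufv1, and Ndufs8, an iron-sulfur subunit, differed by -0.08 (SE 0.16) and 0.02 (SE 0.18).

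Ndufs4, an accessory subunit whose loss impairs complex I in mice, had the smallest p of all members. It was at 3.75 and 3.45 on the c-Jun-deleted arrays and at 3.86, 3.96 and 4.05 on the wild-type arrays (-0.36, SE 0.17, unadjusted p = 0.0871, adjusted p = 0.452). Its groups did not overlap, with a gap of 0.11. On the other side stood Ndufb11, a membrane-arm subunit, at 6.05 and 5.98 against 6.06, 5.70 and 6.02 in wild-type (0.09, SE 0.17), where the c-Jun-deleted values lay among the wild-type ones. Ndufa12 (0.08) and Ndufs8 were the only other members above 0.

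The accessory subunit Ndufv3 had the largest difference of complex I in size, and its values show how the arrays differed within a group. It was at 5.74 and 5.34 on the c-Jun-deleted arrays and at 6.21, 5.64 and 6.40 on the wild-type arrays (-0.54, SE 0.29, adjusted p = 0.495). Wild-type 11 lay below c-Jun-deleted 1, so the groups overlapped. Ndufa4, which is named for complex I but is now counted with complex IV, was at 5.21 and 4.69 against 5.08, 4.47 and 5.32 in wild-type (-0.01, SE 0.33), with wild-type 11 lowest. Ndufv3 was outside the rule for named genes, as were Ndufa4 and Ndufa12, and they were chosen after their values were seen.

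Complex II, the succinate dehydrogenase of the tricarboxylic acid cycle, had 4 genes, all below 0 under this scaling, with a median difference of -0.33, which was -0.12 under median centring. Sdha, the flavoprotein that oxidizes succinate, was at 4.99 and 4.87 on the c-Jun-deleted arrays and at 4.96, 4.97 and 5.15 on the wild-type arrays (-0.09, SE 0.15, adjusted p = 0.811), with overlapping groups. The iron-sulfur subunit Sdhb was at 6.53 and 6.11 on the c-Jun-deleted arrays and at 6.57, 6.53 and 6.82 on the wild-type arrays (-0.32, SE 0.20, adjusted p = 0.543). Its groups were apart by less than 0.05, the distance from c-Jun-deleted 1 to wild-type 11.

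The membrane anchors of complex II gave similar differences at unlike levels. Sdhc was at 3.96 and 3.82 on the c-Jun-deleted arrays and at 4.25, 3.98 and 4.49 on the wild-type arrays (-0.35, SE 0.20, adjusted p = 0.518), without overlap but with a gap of 0.02. Sdhd was at 5.67 and 5.14 on the c-Jun-deleted arrays and at 5.67, 5.65 and 5.93 on the wild-type arrays (-0.34, SE 0.22, adjusted p = 0.557). In Sdhd c-Jun-deleted 1 lay level with wild-type 5, and the group difference came from c-Jun-deleted 9.

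Complex III passes electrons to cytochrome c. Its 9 genes were all below 0, with a median of -0.15, which was 0.06 under median centring. Cyc1, the cytochrome c1 subunit, was at 4.33 and 3.92 on the c-Jun-deleted arrays and at 4.22, 4.17 and 4.46 on the wild-type arrays (-0.15, SE 0.20). Uqcrfs1, the Rieske iron-sulfur protein, was at 4.74 and 4.51 against 4.73, 4.82 and 4.91 in wild-type (-0.19, SE 0.15). Both overlapped between the groups.

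The core proteins of complex III, which hold its matrix side, gave differences close to each other at unlike levels. Uqcrc1 was at 3.68 and 3.57 on the c-Jun-deleted arrays and at 3.77, 3.76 and 3.91 on the wild-type arrays (-0.19, SE 0.14, adjusted p = 0.597), below the wild-type range by 0.09. Uqcrc2 was at 4.74 and 4.63 against 4.72, 4.80 and 4.92 in wild-type (-0.13, SE 0.14), with overlap. Uqcrh, the hinge protein beside cytochrome c1, had the smallest p of the complex and was nearly equal on both c-Jun-deleted arrays, at 6.56 and 6.57, against 6.79, 6.70 and 6.93 in wild-type (-0.24, SE 0.15, adjusted p = 0.534). Its gap of 0.13 was the widest among the 14 members whose groups did not overlap.

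Complex IV, cytochrome c oxidase, reduces oxygen. Its 12 tested genes were all below 0, with a median of -0.25, which was -0.04 under median centring. Below the wild-type range lay 4 (Cox5a, Cox6a2, Cox7a2l and Cox8a), or 33.3%, compared with 20.2% of all genes. Under median centring no member of any complex lay below it. Cox5a, a subunit of the matrix side, was at 7.01 and 6.49 on the c-Jun-deleted arrays and at 7.01, 7.06 and 7.26 on the wild-type arrays (-0.36, SE 0.21, adjusted p = 0.528). The gap between its groups was 0.0029, so that c-Jun-deleted 1 and wild-type 5 were level. Cox5b was at 5.64 and 5.36 on the c-Jun-deleted arrays and at 5.61, 5.53 and 5.74 on the wild-type arrays (-0.13, SE 0.16), with overlap.

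Among the other structural subunits, Cox6c was at 6.28 and 5.98 on the c-Jun-deleted arrays and at 6.27, 6.11 and 6.41 on the wild-type arrays (-0.14, SE 0.18). Cox7c was at 5.24 and 5.03 against 5.24, 5.03 and 5.33 in wild-type (-0.06, SE 0.17). For Cox7c the 2 groups spanned nearly the same values, and its 3 probes differed in sign, from -0.21 to 0.02.

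Several subunits of complex IV exist in forms for particular tissues. Of the widely expressed forms, Cox8a was at 7.30 and 7.12 on the c-Jun-deleted arrays and at 7.51, 7.40 and 7.78 on the wild-type arrays (-0.35, SE 0.18, adjusted p = 0.486), below the wild-type range by 0.09. Cox7a2 was at 5.27 and 4.81 against 5.22, 5.17 and 5.56 in wild-type (-0.28, SE 0.22). Cox6b1 was at 3.06 and 2.77 against 3.11, 2.99 and 3.44 in wild-type (-0.27, SE 0.21), and in both of these c-Jun-deleted 1 lay inside the wild-type values.

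The muscle and testis forms that were measured lay near or below their arrays' 75th percentile. Cox7a1, the heart and muscle partner of Cox7a2, had the largest difference of all members in size, at -0.46 and -0.98 on the c-Jun-deleted arrays and at 0.23, -0.68 and 0.26 on the wild-type arrays (-0.66, SE 0.37, adjusted p = 0.510). Wild-type 11 fell between the c-Jun-deleted arrays, so the groups overlapped. Cox6a2, the heart and muscle form of Cox6a1, was at -1.25 and -1.0 on the c-Jun-deleted arrays and at -0.92, -0.69 and -0.23 on the wild-type arrays (-0.51, SE 0.26, adjusted p = 0.476), without overlap. Cox6b2, the testis form of Cox6b1, was at -1.35 and -1.50 against -0.78, -1.79 and -1.02 in wild-type (-0.23, SE 0.34), with wild-type 11 lowest of all.

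Cox7a2l is a relative of Cox7a2 that joins complexes III and IV into supercomplexes. It was at 7.07 and 7.24 on the c-Jun-deleted arrays and at 7.36, 7.45 and 7.36 on the wild-type arrays (-0.23, SE 0.14, adjusted p = 0.536). It was 1 of 4 members that were lower on c-Jun-deleted 1 than on c-Jun-deleted 9, with Ndufa6, Uqcrh and Cox6a2, and all 4 lay below the wild-type range. On the other 74 members c-Jun-deleted 1 was the higher of that pair.

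Complex V makes ATP with a catalytic head of alpha and beta subunits, a rotating gamma stalk and a ring of c subunits in the membrane. Its 17 genes were all below 0, with a median of -0.18, which was 0.03 under median centring. Below the wild-type range lay 3 (Atp5b, Atp5c1 and Atp5l), or 17.6%, compared with 20.2% of all genes. Atp5a1, the alpha subunit, was at 6.56 and 6.19 on the c-Jun-deleted arrays and at 6.63, 6.39 and 6.81 on the wild-type arrays (-0.24, SE 0.21), with overlap. Atp5b, the catalytic beta subunit, was at 7.37 and 7.08 on the c-Jun-deleted arrays and at 7.48, 7.39 and 7.76 on the wild-type arrays (-0.32, SE 0.19, adjusted p = 0.527), with a gap of 0.03. Both have c-Jun-deleted 9 lowest and wild-type 14 highest.

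Atp5c1, the gamma subunit, was at 5.97 and 5.82 on the c-Jun-deleted arrays and at 6.11, 6.08 and 6.36 on the wild-type arrays (-0.29, SE 0.16, adjusted p = 0.510), without overlap. Atp5l, the g subunit at the membrane, had the smallest p of the complex, at 6.59 and 6.42 against 6.77, 6.66 and 7.05 in wild-type (-0.32, SE 0.18, adjusted p = 0.508), also without overlap. All 5 probes of Atp5l gave differences below 0, from -0.33 to -0.19, and the 2 probes of Atp5c1 both gave -0.29.

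The c subunit of the ring is encoded by 3 genes with the same mature protein. Atp5g1 was at 5.76 and 5.20 on the c-Jun-deleted arrays and at 5.53, 5.50 and 5.89 on the wild-type arrays (-0.16, SE 0.24). Atp5g2 was at 7.20 and 7.10 against 7.22, 7.17 and 7.42 in wild-type (-0.13, SE 0.15). Atp5g3 was at 6.63 and 6.03 against 6.68, 6.53 and 6.97 in wild-type (-0.39, SE 0.26, adjusted p = 0.559). All 3 overlapped between the groups, and c-Jun-deleted 9 was lowest in each.

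**Figure D2:**
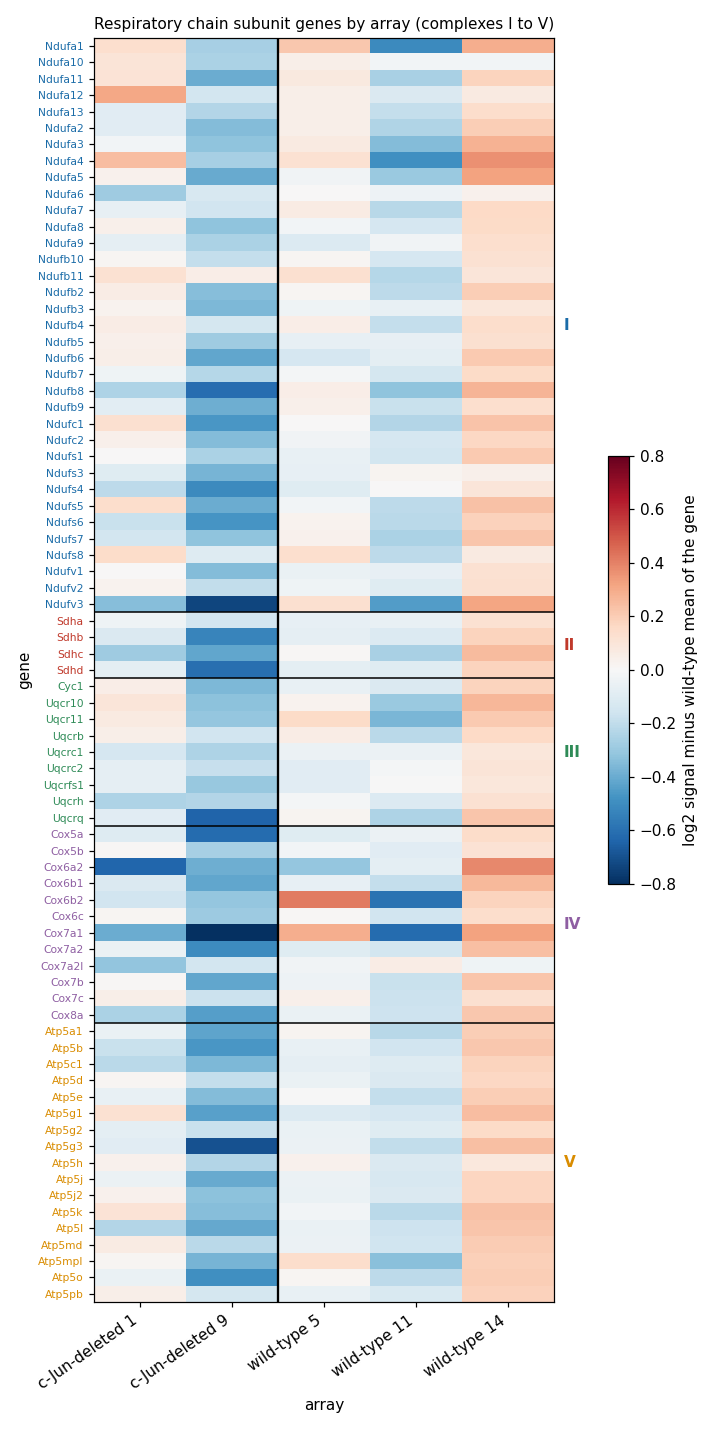
Each row is 1 gene (77 of the 78 tested), grouped by complex, and each column 1 array, with the c-Jun-deleted arrays left of the wild-type arrays; colour is the log2 signal minus the gene's wild-type mean. The c-Jun-deleted 9 column is the lowest of the 5 for 64 of the 78 tested genes and the wild-type 14 column the highest for 72.

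The members moved together from array to array, within the wild-type group as well as between the groups. The median deviation of the 78 genes from their wild-type means was -0.03 on c-Jun-deleted 1 and -0.33 on its partner, c-Jun-deleted 9, against -0.02, -0.15 and 0.18 on wild-type 5, 11 and 14. The c-Jun-deleted 1 array thus stood level with wild-type 5, and the wild-type arrays spanned a wider distance than that from the lower of them to c-Jun-deleted 9. Wild-type 14 was the highest of the 5 arrays for 72 of 78 members, compared with 27.9% of all genes. The lowest was c-Jun-deleted 9 for 64 of 78, compared with 28.5% of all genes. Other lists shared this: wild-type 14 was highest for 14 of 16 glycolysis, 11 of 16 tricarboxylic acid cycle and 46 of 77 mitochondrial ribosomal protein genes. In these lists c-Jun-deleted 9 was lowest for 15, 12 and 50 genes. Of 75 cytosolic ribosomal protein genes, wild-type 14 was highest for 6 and c-Jun-deleted 9 lowest for 3.

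The genes stayed close to each other on each array. The middle 50% of members spanned 0.14 and 0.18 on the c-Jun-deleted arrays, against 0.10, 0.12 and 0.09 on wild-type 5, 11 and 14. Over all genes the same spans were 0.46 and 0.60, against 0.27, 0.38 and 0.36. Such closeness was not particular to the respiratory chain. For mitochondrial ribosomal protein genes the spans were 0.14 and 0.19, against 0.08, 0.15 and 0.12 in wild-type. Tricarboxylic acid cycle genes had spans of 0.16 and 0.19, against 0.12, 0.14 and 0.10. Those of glycolysis were wider, at 0.24 and 0.86 against 0.19, 0.24 and 0.25. In every complex c-Jun-deleted 9 had the lowest median and wild-type 14 the highest. On c-Jun-deleted 9 the medians were -0.32 for complex I, -0.47 for complex II, -0.30 for complex III, -0.40 for complex IV and -0.36 for complex V, and on c-Jun-deleted 1 they lay between -0.11 and 0.02. Genes of 1 array share its RNA, labelling and scaling, so they are not replicates of each other.

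**Figure D3:**
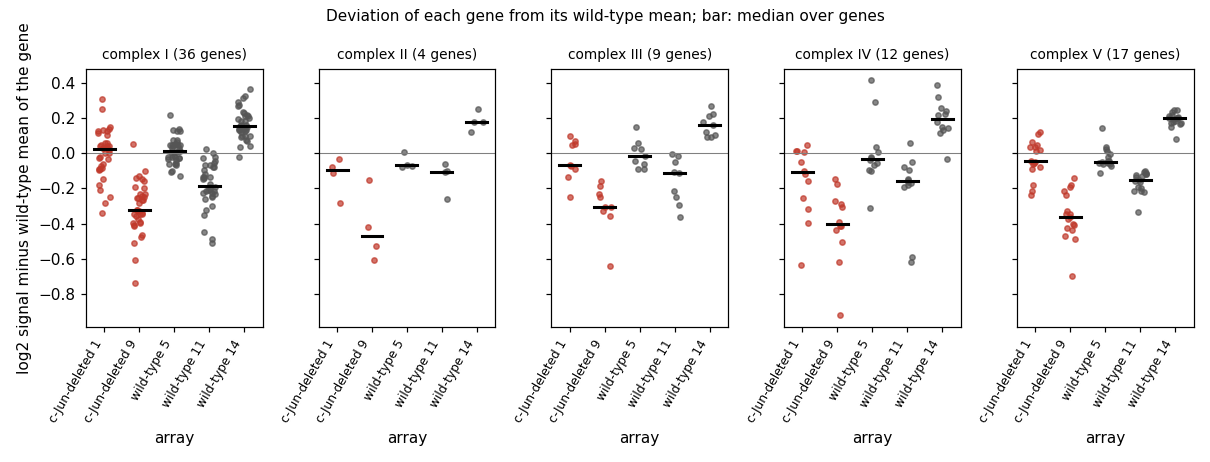
Each point is 1 gene and each panel 1 complex; the vertical axis is the log2 signal minus the gene's wild-type mean, and bars are medians, with c-Jun-deleted arrays left (red) and wild-type arrays right (grey). In every panel c-Jun-deleted 9 has the lowest median and wild-type 14 the highest, while c-Jun-deleted 1 lies within 0.11 of 0.

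The arrays came from 2 slides, which coincide with the scan. Slide 1 carried c-Jun-deleted 1 and wild-type 5, and slide 2 carried c-Jun-deleted 9 and wild-type 11 and 14. The median difference of the members was -0.0014 within slide 1, with 39 of 78 below 0, and -0.33 within slide 2, with 77 of 78 below 0, while the medians of all genes were -0.10 and -0.07. With the slide as a block in limma it was -0.19, and 0 members passed at an adjusted p below 0.05. Without c-Jun-deleted 9 the median was -0.03, with 41 of 78 below 0, against 75 of 78 with all 5 arrays. With all arrays kept, 28 of 78 were below 0 under median centring. Without wild-type 14 the median of the members was -0.08, with 66 of 78 below 0, and that of all genes was also -0.08.

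**Figure D4:**
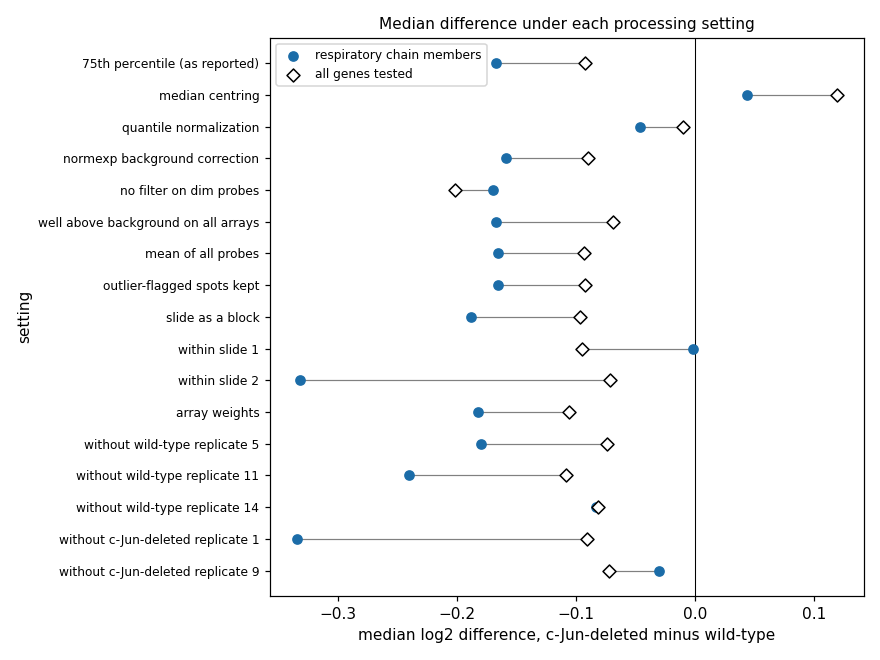
The horizontal axis is the median log2 difference (c-Jun-deleted minus wild-type) and each row 1 way of processing, with filled circles for the respiratory chain members and open diamonds for all genes tested. The members' median runs from -0.33 within slide 2 and without c-Jun-deleted 1 to 0.04 under median centring, and it lies above the median of all genes within slide 1, without c-Jun-deleted 9 and with no filter on dim probes.

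Where genes move together, the letters of their promoters can be set beside them. RefSeq gives promoter windows (assembly GRCm38.p6, 250 bases before to 50 after an annotated start) for 68 of the 83 members. There are 73 such windows, since 5 members have several annotated starts, and a gene was counted once where any of its windows held a motif. The core of the NRF1 motif, named for a regulator of many nuclear genes for mitochondrial proteins, was found on either strand in 10 of 68 genes (14.7%), compared with 4.84% of tested genes with a window. CCGGAAG, as bound by ETS factors such as GABP, was found in 17 genes (25%, against 17.6%), and AAGATGGCG, as bound by YY1, in 7 (10.3%, against 3.11%). The set of motifs was settled after matches had been counted, and no test was run. A match is a description of the letters, not a binding site. The NRF1-type letters are shown in capitals for Atp5g2 and Ndufb4, whose stretches lie before the start and outside the genes that RefSeq annotates. In order they lie at chr15:102671050-102671119 and chr16:37654520-37654589, both on the minus strand, and the capitals begin 42 and 191 bases before the start.
Atp5g2: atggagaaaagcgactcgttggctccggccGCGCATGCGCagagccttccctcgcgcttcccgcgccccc
Ndufb4: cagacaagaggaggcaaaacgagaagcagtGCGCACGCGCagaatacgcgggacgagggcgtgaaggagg
The difference of Ndufb4, an accessory subunit of complex I, was -0.04 (SE 0.17), and that of Atp5g2 was -0.13. Ndufb4 is named here for its letters, not by the rule.

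The product of the deleted gene is part of AP-1, which binds TGACTCA. Those letters were found on either strand in 6 of 68 genes (8.82%), compared with 4.93% of tested genes. In Ndufa9, a subunit of complex I, they lie outside the genes that RefSeq annotates, at chr6:126849355-126849394 on the minus strand, and begin 247 bases before the start. The capitals read TGAGTCA because the match is on the other strand.
Ndufa9: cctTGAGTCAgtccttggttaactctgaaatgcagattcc
With up to 30 bases on each side, the letters of Atp5c1 overlap the neighbouring gene Kin and those of Uqcrh the neighbouring gene Lrrc41. In Ndufa5 and Ndufa13 the letters lie before a start that lies inside the gene's own annotated bounds, and in Atp5g1 after the start.
The 6 genes differed by -0.29 (Atp5c1), -0.24 (Uqcrh), -0.16 (Ndufa9), -0.16 (Ndufa13), -0.19 (Ndufa5) and -0.16 (Atp5g1), which lie on both sides of the members' median of -0.17. TGACGTCA, to which AP-1 heterodimers with ATF factors bind, was found in 4 of 68 genes (5.88%), compared with 3.27% of tested genes: those of Ndufa10, Ndufa11, Ndufb2 and Uqcrfs1. Their differences ran from -0.19 for Uqcrfs1 to -0.07 for Ndufa10, and no member with either motif passed the test, while Atp5c1 and Uqcrh were among the 14 below the wild-type range.

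Genes that build or feed the chain were set beside the subunits. Of 58 assembly factors on the list 53 were tested, with 33 below 0 and 20 above, a median of -0.05, and 0 at an adjusted p below 0.05. Below the wild-type range lay 5 (9.43%, compared with 20.2% of all genes) and above it 4 (7.55%, compared with 13.3%). The complex IV factor Cmc1 had the smallest p among them, at 2.14 and 1.96 on the c-Jun-deleted arrays and at 2.42, 2.73 and 2.50 on the wild-type arrays (-0.49, SE 0.17, unadjusted p = 0.034, adjusted p = 0.373). Timmdc1, a complex I factor, was at 2.32 and 2.43 against 2.82, 2.64 and 2.79 in wild-type (-0.37, SE 0.14, adjusted p = 0.412). Ecsit, another complex I factor with a role in innate immune signalling, was at 3.00 and 3.01 against 2.71, 2.86 and 2.58 in wild-type (0.29, SE 0.15, adjusted p = 0.489), so that factors of the same complex lay on opposite sides of the wild-type range.

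The naming rule leaves out further genes tied to the chain, of which 9 were tested: Ndufab1, Cox4i1, Cox4i2, Cycs, Atpif1, Higd1a, Higd2a, Dmac2 and Dmac2l. They are not all subunits or carriers, and their median difference was -0.09, as over all genes. On c-Jun-deleted 9 their median deviation was -0.10 (quartiles -0.38 and -0.08), where that of the members was -0.33 (quartiles -0.41 and -0.23). Cox4i1, a large nuclear subunit of complex IV, was at 6.90 and 6.87 on the c-Jun-deleted arrays and at 7.0, 6.86 and 7.06 on the wild-type arrays (-0.09, SE 0.14). Cycs, cytochrome c, was at 4.72 and 4.32 against 4.50, 4.92 and 4.69 in wild-type (-0.18, SE 0.21). Of these 9 genes 7 were below 0 and none lay below the wild-type range, and Dmac2, linked to complex I assembly, was the single one outside the wild-type range, at 3.61 and 3.74 against 3.09, 3.31 and 3.09 in wild-type (0.51, SE 0.15, unadjusted p = 0.0227, adjusted p = 0.335).

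Coenzyme Q synthesis and the enzymes that hand electrons to it had 18 tested genes with a median of -0.09, 11 below 0 and 7 above, and 0 passed. Gpd2, the mitochondrial glycerol-3-phosphate dehydrogenase, was at 1.68 and 1.16 on the c-Jun-deleted arrays and at 1.80, 2.55 and 2.65 on the wild-type arrays (-0.91, SE 0.34, unadjusted p = 0.0449, adjusted p = 0.400), without overlap. Coq8a, a kinase-like protein of coenzyme Q synthesis, was at -0.06 and 0.54 against -0.32, -0.11 and -0.49 in wild-type (0.55, SE 0.25, adjusted p = 0.442), also without overlap.

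Regulators of mitochondrial biogenesis differed in both directions. Of 14 tested genes 10 were above 0 and 4 below, with a median of 0.03, and 0 passed. The median size of their differences was 0.17, against 0.25 over all genes. Above the wild-type range lay 3 (Tfam, Polrmt and Twnk), or 21.4%, compared with 13.3% of all genes, and below it 0. Nrf1 was at 1.46 and 1.61 on the c-Jun-deleted arrays and at 1.42, 1.51 and 1.64 on the wild-type arrays (0.01, SE 0.15). Tfam, which packages and transcribes mitochondrial DNA, was at 2.20 and 2.36 against 2.06, 2.12 and 2.14 in wild-type (0.17, SE 0.14, adjusted p = 0.627), without overlap. The coactivator genes Ppargc1a (0.54, SE 0.33) and Ppargc1b (-0.56, SE 0.31) stood on opposite sides of 0 and overlapped between the groups. Ppargc1a had a low signal, at -3.69 and -3.42 on the c-Jun-deleted arrays and at -4.00, -3.67 and -4.63 on the wild-type arrays.

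Among the metabolic and ribosomal lists, glycolysis had the largest median difference in size. Its 16 tested genes had a median of -0.76, all were below 0 in each setting run, and 13 lay below the wild-type range (81.2%, compared with 20.2% of all genes). At an unadjusted p below 0.05 with limma 8 of 16 were lower, compared with 6.53% of all genes, and 0 passed after adjustment. Within slide 1 the median was -0.44 and within slide 2 it was -1.08. Tpi1, triose-phosphate isomerase, was at 5.09 and 4.28 on the c-Jun-deleted arrays and at 6.02, 5.77 and 6.53 on the wild-type arrays (-1.42, SE 0.36, adjusted p = 0.284). Per array the median deviation of glycolysis was -0.51 and -1.06 on the c-Jun-deleted arrays, against -0.09, -0.31 and 0.34 on the wild-type arrays. The c-Jun-deleted 1 array, which for the respiratory chain stood level with wild-type 5, was below all wild-type arrays for glycolysis, and the order of the other 4 arrays was the same in both lists.

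The 16 tricarboxylic acid cycle genes had a median of -0.12, with 14 below 0 and 2, Idh3b and Pdha1, below the wild-type range (12.5%). The 77 tested mitochondrial ribosomal protein genes had a median of -0.08, with 60 below 0, 11 below the wild-type range (14.3%) and 3 above (3.90%), compared with 20.2% and 13.3% of all genes. Both of these medians turned positive under median centring (0.09 and 0.14). Cytosolic ribosomal protein genes went the other way on c-Jun-deleted 9, with a median deviation of 0.16, and their 75 tested genes had a median difference of 0.08, which was -0.08 within slide 1. The array with the lowest respiratory chain values was therefore not low for every list of genes.

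**Figure D5:**
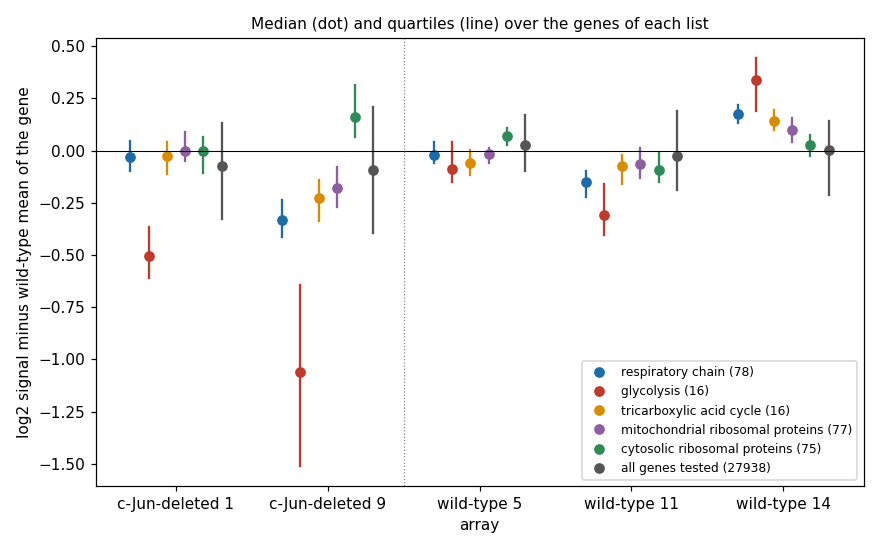
Dots are medians and lines quartiles, over the genes of each list, of the log2 signal minus the gene's wild-type mean, with c-Jun-deleted arrays left of the dotted line and wild-type arrays right. The respiratory chain is at -0.03 and -0.33 on the c-Jun-deleted arrays, while glycolysis is at -0.51 and -1.06 and the cytosolic ribosomal proteins are at -0.0041 and 0.16.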

How the data were processed

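RNA of adherent peritoneal macrophages was hybridised to 1-colour arrays. The deposited scanner files hold spot intensity from Feature Extraction 11.5.1.1, background-subtracted and not scaled between arrays, and other values used as 0 or 1 flags, per the file headers. The deposited series table holds log2 values as 1 mean per group; its only member probe, that of Ndufa4l2, was dim on all arrays and not used.

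Processed signals were divided by each array's 75th percentile over non-control spots before log2 was taken. Spots with outlier flags were left out, a probe was kept if well above background on 2 or more of the 5 arrays (32821, of which 256 dropped out through flags), and a gene was its brightest probe. Names came from transcript accessions matched to RefSeq's table of assembly GRCm38.p6 (28026 of 55681 probes). The arrays were designed on mm9, so coordinates are given for promoters alone. The comparison used limma 3.58.1 (R 4.3.3; 2-sided, Benjamini-Hochberg over 27938 genes, threshold 0.05), after a check on simulated data. The arrays number 5, which limits precision.

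The members and gene lists were chosen with earlier results of these data known. Named members are the core subunits, the tissue forms, the smallest p on each side per complex, and members outside the wild-type range by a difference of at least 0.5. The values of 1 member that entered the counts are not reported here. For normexp the median spot signal was used. Near-identical copies, such as processed pseudogenes, can add signal to a probe and cannot be told apart here. Among 22 members with several probes, 20 had probes of 1 sign and 2 (Cox7c and Ndufb6) did not. Alternatives were another scaling, background correction, filter, probe rule, slide as a block, within-slide values, array weights and leaving out each array.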

Additional observations from a re-analysis of the deposited data

How the results depend on the processing

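In each alternative that allows a test, 0 members passed an adjusted p below 0.05. Over all genes the count was 0, against 187 under median centring and 1 with array weights. Members below the wild-type range numbered 14, against 0 under median centring. They numbered 39 within slide 1 and 68 within slide 2. With 1 array left out they numbered 14 to 68 (68 without c-Jun-deleted 1, 38 without wild-type 11). Members above the range numbered 0, against 2 under quantile normalization and 1 with the mean of all probes. With 1 array left out they numbered 0 to 3 (3 without c-Jun-deleted 9). Groups with fewer arrays fail to overlap more often by design, and the shares over all genes in those settings are not given here. The range counts within a slide or without an array therefore cannot be read against those with every array kept. Members lower at an unadjusted p below 0.05 numbered 0, against 2 with normexp background correction, 1 with no filter on dim probes, 2 with array weights and 0 to 4 with 1 array left out (4 without wild-type 11). The median difference of the members was -0.17, against 0.043 under median centring, and -0.33 to -0.03 with 1 array left out. Among all genes at an unadjusted p below 0.05, 46.3% were higher in c-Jun-deleted macrophages, against 79.0% under median centring and 62.0% under quantile normalization. Of 36 named members, 14 took the other sign under median centring, 6 under quantile normalization, 14 within slide 1 and 8 without c-Jun-deleted 9, with 0 to 2 in each of the others. The sign of the members as a group thus depends on the scaling, and the cause was not tested. No paired analysis was possible because the groups share no replicate numbers.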
